A study of Mus musculus with 79 samples.

Results

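The genes described here are cardiac muscle genes, grouped under the muscle that surrounds the pulmonary veins, and were measured in whole lung in a study of cigarette smoke. The list holds 8 genes, Myh6, Myl7, Myl4, Nppa, Tnnt2, Tnni3, Sln and Ryr2, chosen by name with earlier results of these data known. A row of the expression table was found for 6 of them, out of 31350 rows in all, by matching the row's transcript to its gene symbol. Each of the 6 had a single row. Myl4 and Ryr2 were matched to no row and were not analysed here. The study compared 79 C57BL/6J mice of 5 to 7 weeks of age in 16 groups of 4 to 6 animals. The groups crossed genotype (WT littermates, or mice overexpressing Scnn1b, named βENaC here and BENaC in the sample titles), exposure (cigarette smoke, or room air as sham), sex, and a duration of 1 day or 5 consecutive days. The transgene acts in airway epithelium and is not directed at muscle. Right lung was taken 4 hours after the final exposure, and each array carried the RNA of a single mouse.

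In rodents, the large pulmonary veins carry a sleeve of striated cardiac muscle that is continuous with the left atrium and extends into the lung. Its cells contract through the same proteins as atrial muscle: myosin heavy and light chains, the troponin complex that makes contraction respond to calcium, and the calcium store that is emptied and refilled with each beat. Whole lung homogenate can therefore hold RNA of cardiac muscle. Muscle of the vein sleeve and atrial tissue taken along with the lung cannot be told apart by these genes, and their parts were not tested. In such bulk samples, a smaller amount of a cell type and less RNA per cell cannot be told apart.

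The sequences just upstream of the transcription start are given for Myl7 and Nppa, 2 of the genes of the list that are typical of atrial rather than ventricular muscle. Both are RefSeq sequences of build GRCm38.p6, 250 bases long, read along the gene and ending at the base before the annotated start. Capitals mark motifs found on either strand. Myl7 lies on the minus strand of chromosome 11, with its window at chr11:5898783-5899032, and Nppa on the plus strand of chromosome 4, at chr4:148000472-148000721.
Myl7: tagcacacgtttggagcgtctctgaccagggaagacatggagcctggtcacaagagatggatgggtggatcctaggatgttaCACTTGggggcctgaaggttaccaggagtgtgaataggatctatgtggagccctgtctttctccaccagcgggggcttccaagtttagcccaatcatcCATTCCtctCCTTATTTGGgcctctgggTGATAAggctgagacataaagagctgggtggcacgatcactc
Nppa: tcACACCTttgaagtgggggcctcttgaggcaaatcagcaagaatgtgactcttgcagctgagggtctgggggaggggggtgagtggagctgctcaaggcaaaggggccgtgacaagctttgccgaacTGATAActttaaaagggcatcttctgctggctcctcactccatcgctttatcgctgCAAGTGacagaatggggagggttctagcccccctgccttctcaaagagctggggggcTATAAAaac
In the Myl7 window, the capitals are, in order, an NKX2-5 motif (CAAGTG, here on the other strand), an M-CAT motif (CATTCC), a CArG box, and a GATA motif (GATA with A or T before it and A or G after it). In the Nppa window they are a T-box motif (AGGTGT, on the other strand), a GATA motif, an NKX2-5 motif and a TATA box (TATAAA). No motif overlapped another. Over all 32851 RefSeq windows of this length, searched on both strands, 26.5% held a GATA motif, 12.6% an M-CAT motif, 12.4% a TATA box, 11.8% a T-box motif, 11.6% an NKX2-5 motif and 1.47% a CArG box. A MEF2 motif was held by 0.508% of windows and by neither of these. Of the 8 listed genes, 7 had a window in the table, and the windows shown held the most kinds of motif. Myh6 and the first of the Tnnt2 windows held a GATA and an M-CAT motif, and Tnni3 a T-box motif. The windows of Myl4 and Ryr2 and the other Tnnt2 window held none of these motifs. These matches describe letters and not bound sites.

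Array medians lay between 4.44 and 4.55 on the log2 scale, and any 2 arrays correlated at 0.965 or more. Among lung markers, Sftpc, the surfactant protein C gene, lay between 12.51 and 12.78 and Scgb1a1, the club cell secretory protein gene, between 13.07 and 13.35 in all mice. Scnn1b, which carries the genotype, was 11.69 ± 0.10 (SD, n = 39) in βENaC mice and 8.98 ± 0.21 (SD, n = 40) in WT mice, with no overlap. The source description of 13 WT mice named the other genotype, against their titles. Before deposit, 1 mouse was assigned to WT from its Scnn1b level, so this gene is no independent check of that animal.

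All 6 genes varied widely between mice of the same group. Values are log2 intensities of each gene's own probes, so levels are compared between mice and not between genes. Myh6, the alpha cardiac myosin heavy chain, the main one of the adult mouse heart (chr14:54941921-54968017), averaged 8.81 over the 79 mice, with a lowest value of 7.99 and a highest of 10.42. Myl7, the atrial regulatory myosin light chain (chr11:5896637-5898782), averaged 8.17 and ran from 7.23 to 9.99. These are the motor and its regulatory chain, and both covered a span of more than 2 log2 units.

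The thin filament genes covered similar spans. Tnnt2, which encodes cardiac troponin T (chr1:135836315-135852268), averaged 9.69 and ran from 8.93 to 10.97, a 4.12-fold span. Tnni3, which encodes cardiac troponin I (chr7:4518305-4522718), averaged 7.93 and ran from 7.07 to 9.62, a 5.85-fold span. Sln encodes sarcolipin, a small membrane protein that restrains the calcium pump of the sarcoplasmic reticulum (chr9:53850251-53853849). It averaged 8.30 and ran from 7.45 to 10.47, an 8.07-fold span. Nppa encodes the precursor of atrial natriuretic peptide, which atrial cells secrete in response to stretch (chr4:148000722-148002074). It averaged 9.25 and ran from 6.46 to 12.35, a 59.5-fold span between mice.

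Most of this variation lay inside the 16 groups. The SD within groups, pooled over all mice, was 1.09 for Nppa, 0.51 for Sln, 0.48 for Myl7, 0.42 for Myh6, 0.41 for Tnni3 and 0.33 for Tnnt2, against a median of 0.16 over all rows. Only 23 of the 31350 rows had a larger within-group SD than Nppa. Tnnt2, the steadiest of the 6, was still at percentile 93.5 of all rows. Rows of similar mean level, within 5 percentiles on either side, had median SDs between 0.11 and 0.12, so that each of the 6 genes varied more than at least 97.2% of such rows. Group membership accounted for between 25.8% of the variance (Myl7) and 40.5% (Sln), with 19.2% of the degrees of freedom. The spread within groups was larger at 5 days for every one of the 6 genes, for example 0.50 against 0.31 for Myh6 and 0.61 against 0.39 for Sln, a difference that was not tested. The exposures were compared by another SD, taken over all mice of an exposure and duration, which also includes genotype and sex differences. Over all smoke mice this SD was larger at 5 days than at 1 day, 0.64 against 0.27 for Myh6 and 0.82 against 0.31 for Sln. Over all sham mice it was smaller at 5 days for each of the 6 genes, 0.27 against 0.38 for Myh6 and 0.38 against 0.56 for Sln.

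**Figure D1:**
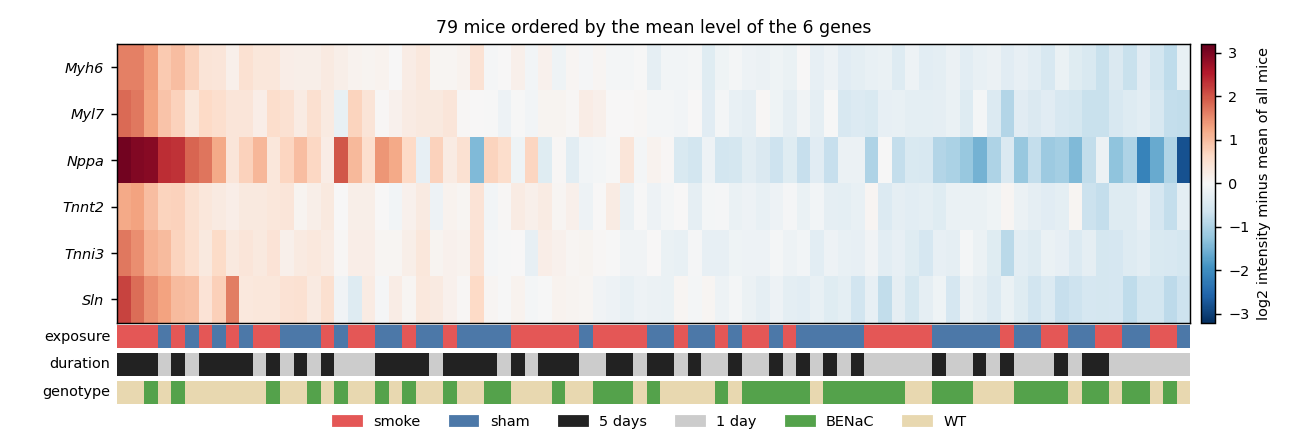
Heat map of the 6 genes (rows) in 79 mice (columns, ordered by the mean level of the 6 genes). Colour gives log2 intensity minus the mean of all mice, and the strips below give exposure, duration and genotype. The columns at the left are high in all 6 genes, Nppa has the deepest colours, and both exposures and both durations occur along the order.

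The same few mice carried the highest values of nearly every member. The smoke-exposed WT female replicate 3 at 5 days had Myh6 at 10.42, Myl7 at 9.99, Nppa at 12.35, Tnnt2 at 10.90, Tnni3 at 9.62 and Sln at 10.47. The smoke-exposed WT male replicate 2 at 5 days followed with 10.42, 9.85, 12.23, 10.97, 9.41 and 10.08 for the same genes. The smoke-exposed βENaC female replicate 5 at 5 days had 10.14, 9.45, 12.18, 10.67, 9.03 and 9.76. For 5 of the 6 genes these were the 3 highest of all mice. The exception was Sln, where the value of the smoke-exposed WT female replicate 4 at 5 days lay between theirs. All 3 belonged to the smoke 5-day groups, but the next in order, with Nppa at 11.62 and Myh6 at 9.66, was the sham-exposed WT male replicate 5 at 1 day. At the other end, the sham-exposed WT female replicate 2 at 1 day had the lowest Nppa (6.46), with Myh6 at 8.58 and Tnnt2 at 9.38.

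Individual members left this common order in a few mice. In the smoke-exposed WT female replicate 4 at 5 days, Sln was 9.93, which was 0.73 above its group mean, while the other 5 genes lay on average 0.24 below theirs. That lung was also the highest or second highest of all mice in each of the 11 measured skeletal muscle genes: Acta1, the skeletal alpha-actin gene, was 10.85 against a median of 2.99 over all mice, and Myh2, a fast myosin heavy chain gene, was 10.87 against 3.03. Sarcolipin is also made by skeletal muscle, and the part of that tissue in this Sln value was not tested. A second lung, that of the sham-exposed WT male replicate 4 at 1 day, came close to it in these genes. Set against the average of all mice, the mean of the 11 skeletal muscle genes was 5.51 higher in the first of these lungs and 5.24 higher in the second, where the third highest mouse was at 0.55. The second lung was also high in the members, at place 6 of 79, with Myh6 at 9.56, Nppa at 11.11 and Sln at 9.26. In the sham-exposed βENaC male replicate 1 at 1 day, Nppa was 11.25, which was 1.75 above its group mean, with the other 5 genes on average 0.06 above theirs. This array also had the lowest mean correlation with the other arrays, 0.979 against a median of 0.990. In the smoke-exposed WT female replicate 2 at 5 days, Tnnt2 was 0.37 below its group mean while the other 5 were on average 1.19 below, and its Myl7 (7.23) and Tnni3 (7.07) were the lowest of all mice.

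At 5 days, Tnnt2 was the only one of the 6 genes that passed the test for smoke exposure, and it rose. A row was called when its limma adjusted p was below 0.05 and its difference exceeded 1.3-fold, in a model with exposure, genotype and sex at each duration. Tnnt2 was 0.40 ± 0.11 (SE) log2 units higher in smoke-exposed than in sham-exposed mice (adjusted p = 0.0264). Thus 1 of 6 members was called, where 1.16% of all rows were called in either direction and 0.581% were called higher in smoke. The other 5 genes had positive coefficients that did not pass: 0.76 ± 0.34 for Nppa (adjusted p = 0.217), 0.46 ± 0.18 for Sln (adjusted p = 0.132), 0.36 ± 0.16 for Myl7 (adjusted p = 0.215), 0.33 ± 0.15 for Myh6 (adjusted p = 0.197) and 0.26 ± 0.14 for Tnni3 (adjusted p = 0.343). The median coefficient over the 6 genes was 0.38, against 0.00 over all rows.

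The Tnnt2 values show how far the groups overlapped. In the smoke-exposed WT females at 5 days they were 9.75, 9.89, 10.01, 10.06 and 10.90, and in the smoke-exposed WT males 9.85, 9.94, 9.95 and 10.97. In the smoke-exposed βENaC females they were 8.93, 9.79, 9.83, 10.06 and 10.67, and in the smoke-exposed βENaC males 9.38, 9.49, 9.75, 9.94 and 10.41. The highest mouse stood apart from its fellows by Dixon's ratio, described under the flagged results, in both WT groups and in neither βENaC group. In the βENaC females the widest gap was at the low end, from 8.93 to 9.79. The 5-day sham groups were 9.47, 9.75, 9.78, 9.98 and 9.98 in WT males, 9.41, 9.45, 9.52, 9.53 and 9.69 in βENaC males, and 9.00, 9.30, 9.46 and 9.61 in βENaC females. The 6 sham WT females ran from 9.40 to 10.12 with a median of 9.61. Smoke and sham ranges therefore overlapped, and 4 smoke-exposed mice, 1 in each group, exceeded every 5-day sham mouse.

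The size of the Tnnt2 difference moved with those mice. The 3 highest mice named earlier were picked for their levels and were all smoke-exposed, so leaving them out lowers the smoke coefficient by construction, and the values without them are a description. Without them the difference was 0.24 ± 0.09 and was not called (adjusted p = 0.113), and the coefficients of the other 5 genes fell to between 0.05 (Tnni3) and 0.32 (Nppa). Leaving out a single mouse kept every adjusted p at 0.0489 or below, but in 5 of 39 cases the difference dropped under 1.3-fold, to 0.34 at the lowest. Those 5 were the 4 high smoke-exposed mice and the sham-exposed βENaC female replicate 1. Without the 2 lungs highest in skeletal muscle genes, Tnnt2 was still called (0.41 ± 0.12, adjusted p = 0.0259).

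**Figure D2:**
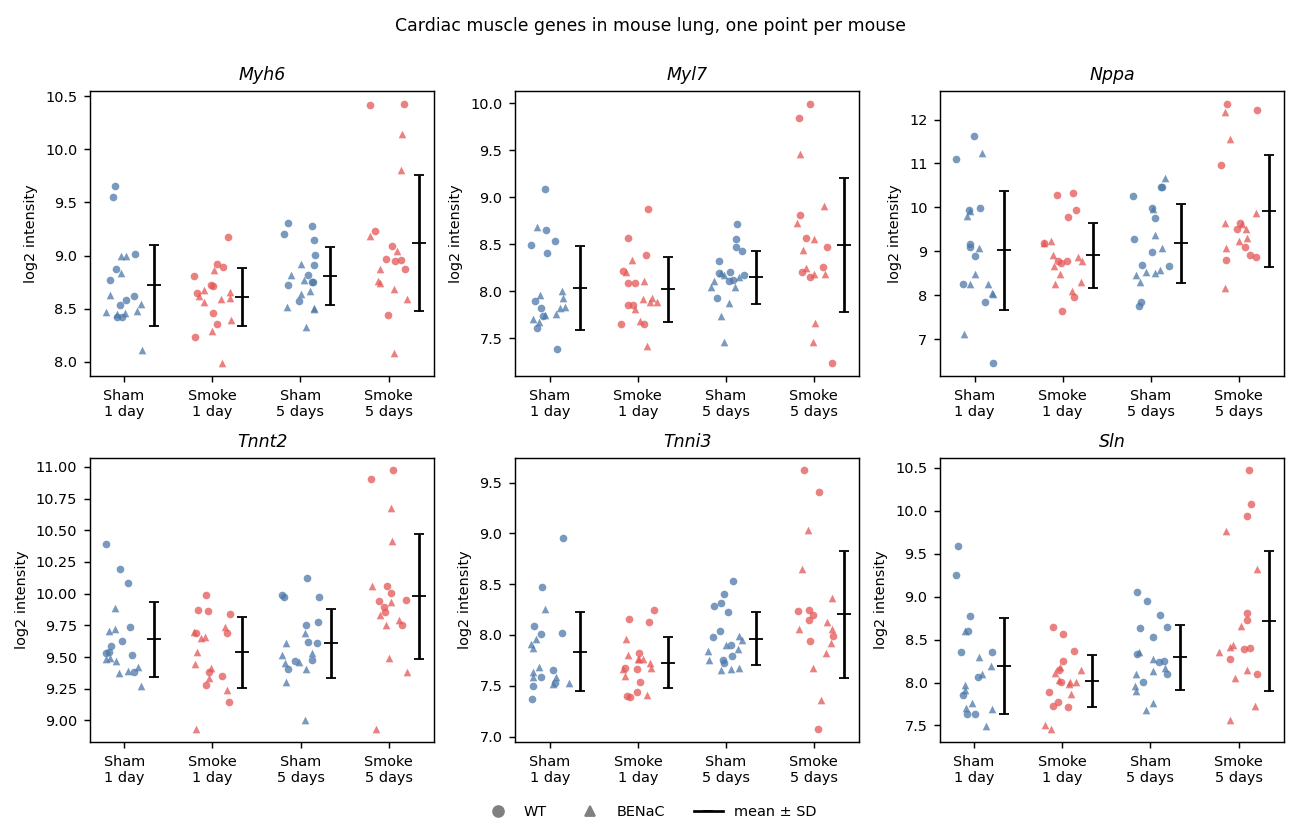
Log2 intensity of each of the 6 genes in every mouse, by exposure and duration, with mean ± SD in black (20 mice per column, 19 for smoke at 5 days) and axes that do not start at 0. Circles are WT and triangles βENaC mice. The smoke 5-day columns have the highest mean and the widest spread of the 4 for 5 genes, while for Nppa the sham 1-day column is the widest. All columns overlap.

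Nppa shows the same overlap over a larger range. At 5 days the sham mice ran from 7.75 to 10.67 with a median of 9.03, and the smoke mice from 8.16 to 12.35 with a median of 9.51. The highest mouse of each smoke group was 12.35 and 12.23 among WT females and males, and 12.18 and 11.56 among βENaC females and males. In the first of these groups the next mouse was at 10.96, and in the other 3 groups it was at 9.88 or below. For Myh6 the smoke mice ran from 8.09 to 10.42 (median 8.96) and the sham mice from 8.33 to 9.30 (median 8.76).

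After 1 day of smoke, no member was called, where 1.08% of all rows were. The 6 coefficients lay between -0.17 (Sln) and -0.01 (Myl7), with adjusted p between 0.425 and 0.964. Smoke-exposed mice had a mean Myh6 of 8.61 ± 0.27 (SD, n = 20), against 8.72 ± 0.38 (SD, n = 20) in sham. Mean Tnnt2 was 9.54 ± 0.28 (SD, n = 20) against 9.64 ± 0.29 (SD, n = 20). At this duration the 2 highest values of each of Myh6 and Tnnt2 were those of sham-exposed WT males, replicates 5 and 4. The second of them is the lung with a skeletal muscle mean of 5.24. Without the 2 lungs highest in these genes the Myh6 coefficient was -0.08 ± 0.09 and that of Tnnt2 -0.08 ± 0.08.

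The change of the smoke effect between durations was tested with an interaction over all 79 mice. No member was called, where 0.612% of all rows were (192 rows, or 137 to 305 with a single mouse left out). The smoke effect at 5 days minus that at 1 day was 0.48 ± 0.15 for Tnnt2 (adjusted p = 0.13), 0.60 ± 0.24 for Sln (adjusted p = 0.285), 0.42 ± 0.18 for Myh6 (adjusted p = 0.338) and 0.86 ± 0.48 for Nppa (adjusted p = 0.524). Myl7 and Tnni3 had 0.36 ± 0.21 and 0.35 ± 0.18. For Tnnt2 the outcome depended on the setting. It passed when the adjustment ran only over the rows called for smoke at either duration (adjusted p = 0.0134). In that setting 171 of 575 rows were called. Tnnt2 belongs to those rows through its 5-day smoke call in the same mice, so this pass is no independent support. With array weights Tnnt2 passed too (0.52, adjusted p = 0.0474), where 447 of all 31350 rows were called. It also passed without the smoke-exposed βENaC female replicate 3 at 5 days (0.53, adjusted p = 0.0444). Without the 3 highest mice, the 6 differences lay between 0.12 and 0.43.

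Genotype was not called for any member. At 5 days, where 2.53% of all rows were called and 0.654% were called lower in βENaC, the 6 coefficients lay between -0.51 and -0.23. Sln was 0.51 ± 0.18 lower in βENaC mice (adjusted p = 0.0656) and Tnnt2 0.32 ± 0.11 lower (adjusted p = 0.0733), both short of the threshold. Mean Sln was 8.25 ± 0.54 (SD, n = 19) in βENaC and 8.73 ± 0.68 (SD, n = 20) in WT mice, with ranges of 7.57 to 9.76 and 8.01 to 10.47. Sln passed in 4 of the 39 fits that left out 1 mouse (adjusted p from 0.0234 to 0.117), and was 0.46 ± 0.18 lower without the 2 lungs highest in skeletal muscle genes (adjusted p = 0.0997). At 1 day, where 1.55% of all rows were called, the coefficients lay between -0.44 and -0.10, and the smallest adjusted p was 0.128, for Sln.

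For sex, Sln met the adjusted p at 1 day but not the fold. It was 0.36 ± 0.12 higher in males (adjusted p = 0.0433), below the 0.38 log2 units that 1.3-fold requires. Without the 1-day lung that was high in skeletal muscle genes it was 0.32 ± 0.11 and did not meet the adjusted p (0.0724). The other 5 genes were between 0.14 (Myl7) and 0.67 (Nppa) higher in males at 1 day, with adjusted p between 0.149 and 0.525, and 0.845% of all rows were called. At 5 days the 6 coefficients lay between -0.15 and 0.06, with adjusted p of 0.818 or more, where 0.198% of all rows were called. A joint test of whether the smoke effect depended on genotype or sex called no member at 1 day (0.00638% of all rows) or at 5 days (0% of all rows). The smallest p of this test among the members was that of Nppa at 1 day, with a smoke effect 1.50 ± 0.59 lower in males than in females (joint adjusted p = 0.688).

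**Figure D3:**
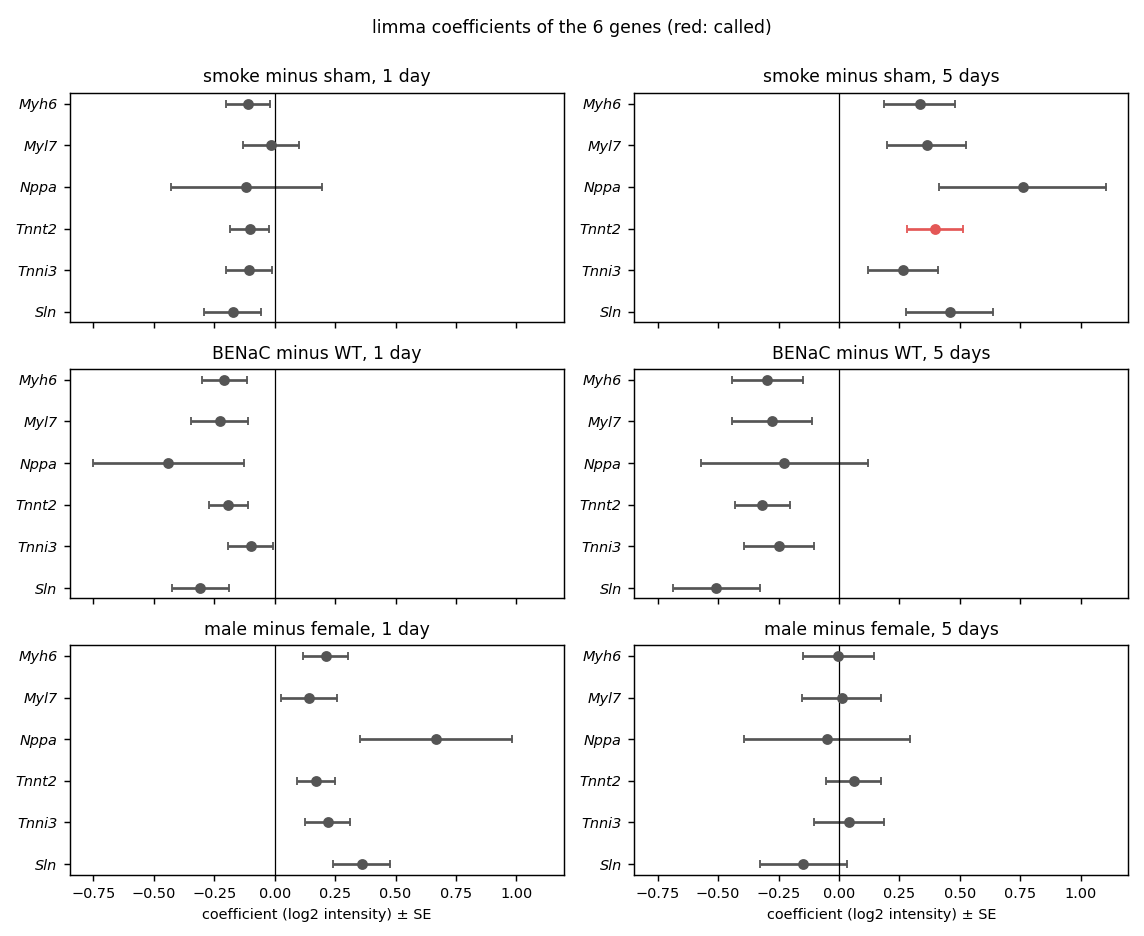
limma coefficients of the 6 genes with their standard errors, in log2 intensity, for smoke minus sham, βENaC minus WT and male minus female at each duration. The only called coefficient (red) is Tnnt2 for smoke at 5 days, 0.40 ± 0.11. All 6 genes lie above 0 in that panel and below 0 in both genotype panels.

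The 6 genes rose and fell together from mouse to mouse inside the groups. After each mouse was set against the mean of its own group, all 15 pairs were positively correlated over the 79 mice, with Pearson's r between 0.72 (Nppa and Tnnt2) and 0.94 (Myl7 and Tnni3) and a median of 0.86. Spearman's rho lay between 0.68 and 0.89. In a permutation test that shuffled mice within groups (two-sided), every pair had p = 1e-05 for both measures, the smallest that 100000 permutations can give, and the same value after Benjamini-Hochberg adjustment over the 30 tests. All values of a mouse come from 1 array and 1 piece of lung. The members were chosen with earlier results of these data known, so these p-values are no independent support for their moving together.

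The correlations stayed positive without the most extreme animals. Without the 2 mice farthest from the median of the x-axis gene, r lay between 0.65 and 0.91. Without the 3 highest mice it lay between 0.61 and 0.90, with a median of 0.78. Within the 40 mice of the 1-day exposure r was between 0.70 and 0.89, and within the 39 mice of the 5-day exposure between 0.74 and 0.96. After Myl7 and Tnni3, the tightest pairs were Myh6 and Tnni3 (0.93) and Myh6 and Tnnt2 (0.92). The 5 pairs with Nppa, the secreted hormone, were the 5 loosest, from 0.72 to 0.78.

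The other genes that followed this pattern most closely were chosen for that likeness, so their values are a description. Ranked by mean r with the 6 members, the first 10 named genes were Csrp3 (0.86), Mybphl (0.85), Tnnc1 (0.84), Pln (0.82), Mybpc3 (0.82), Mhrt (0.81), Myom2, Atp2a2, Txlnb and Smpx (all 0.80). Csrp3 encodes a muscle LIM protein, Tnnc1 the troponin C of cardiac and slow muscle, Mybpc3 the cardiac myosin-binding protein C, and Mybphl a related protein known from atria. Pln encodes phospholamban and Atp2a2 the calcium pump it restrains. Atp2a2 is made by many cell types, and its within-group SD was only 0.16, against 0.41 for Pln. Mhrt is a long noncoding RNA antisense to Myh7, a close relative of Myh6, and signal shared between these similar or overlapping transcripts could not be separated. Of these 10, Txlnb was called for smoke at 1 day, where it was 0.45 ± 0.13 lower (adjusted p = 0.0221). Without the 2 lungs highest in skeletal muscle genes it was 0.37 ± 0.11 lower, under 1.3-fold. In all, 35 rows outside the list had a mean r of 0.7 or more, 5 of them without a symbol, and the median over all rows was 0.00.

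Functional groups of muscle genes, listed for their role in the heart, followed the members to different degrees. All 12 measured sarcomere genes had a mean r of 0.5 or more, with a median of 0.76, and so did all 9 genes of muscle energy supply, such as Mb for myoglobin (0.74) and Ckmt2 for mitochondrial creatine kinase (0.65), with a median of 0.65. Without the 3 highest mice, 9 of the 12 sarcomere genes and 6 of the 9 energy genes reached 0.5. Without the 2 lungs highest in skeletal muscle genes all of both did, with medians of 0.83 and 0.78. In those 2 lungs the energy mean was the highest of all mice. It stood 2.60 and 2.07 above its average, against 1.54 in the mouse with the highest members. The sarcomere mean there stood 1.54 and 1.26 above its average, against 1.47 in that mouse. The part of skeletal muscle in these lists was not tested. Of 10 calcium-handling genes, 5 reached 0.5: Pln, Atp2a2, Casq2 for cardiac calsequestrin (0.79), Hrc (0.64) and Slc8a1 for the sodium-calcium exchanger (0.51). Without the 3 highest mice 4 of them did, with Hrc at 0.51 and Slc8a1 at 0.28, and the list's median fell from 0.48 to 0.35. Cacna1c, the main calcium channel of heart and smooth muscle, was at -0.03. In the list of conduction and ion channel genes, Kcnj5, an atrial potassium channel subunit (0.72), and Smpx, a small muscle protein that is no channel, reached 0.5, whereas Gja5 for connexin 40 was at 0.04. Without the 3 highest mice Kcnj5 was at 0.54 and Smpx at 0.68. The median level of Kcnj5, 3.68, lay below the median of every array.

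Among 10 cardiac transcription factors, Tbx20 (0.77), Gata4 (0.63) and Nkx2-5 (0.54) reached 0.5. Only Tbx20 did so without the 3 highest mice (0.62), with Gata4 at 0.40 and Nkx2-5 at 0.36. Their median levels were 4.97, 3.88 and 3.87, those of Gata4 and Nkx2-5 below the median of every array. Of the natriuretic peptide genes, Nppb was at 0.70, and none reached 0.5 without the 3 highest mice. For Nppb, the level ran from 2.99 to 8.09. The receptors Npr1, Npr2 and Npr3 lay between -0.12 and 0.12, and Corin, whose product cleaves the Nppa precursor, was at 0.21. None of the 4 measured markers of ventricular muscle reached 0.5: Myl2, the ventricular light chain, had an r of 0.30, Myh7 0.06 and Irx4 -0.11. The levels of Myl2 and Irx4, at most 3.64 and 3.22 in any mouse, lay below the median of every array. At such levels little change can be seen. Myh7 was highest, at 7.83, in the smoke-exposed WT female replicate 4 at 5 days, a lung high in skeletal muscle genes.

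**Figure D4:**
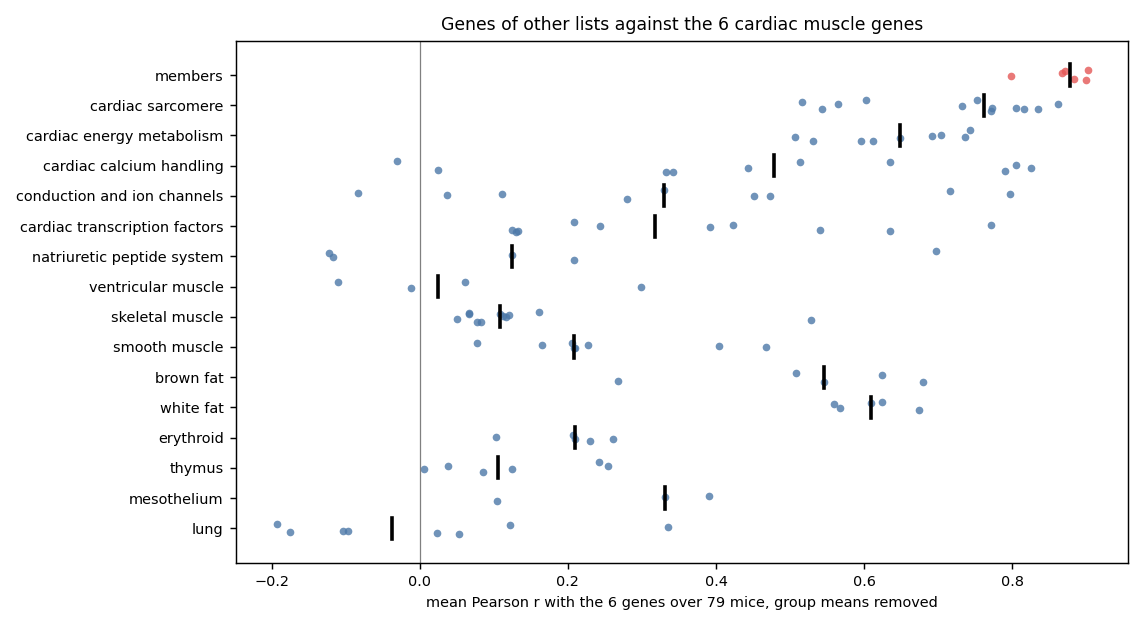
Mean Pearson r of each listed gene with the 6 members (each member with itself included) over 79 mice, after removal of group means; each point is a gene and the bar is the list's median. Sarcomere and energy genes lie at medians of 0.76 and 0.65, white and brown fat at 0.61 and 0.55, and ventricular, skeletal and lung lists near 0.

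Few genes of these lists passed a group comparison. For smoke at 5 days, 1 of 12 sarcomere genes was called, Myom1 (0.42 ± 0.11 higher, adjusted p = 0.0127), which encodes a protein of the sarcomere's M-band. Of all rows, 1.16% were called there and 0.581% were called higher in smoke. The list's median was 0.40, against 0.00 over all rows. Without the 3 highest mice 0 sarcomere genes were called (396 of all 31350 rows), and with array weights 7 were (390 of all 31350 rows). Without the 2 lungs highest in skeletal muscle genes Myom1 was 0.35 ± 0.09 higher, under 1.3-fold, and Trdn, which encodes triadin of the calcium store, was called (0.47 ± 0.14 higher, adjusted p = 0.0298). The median level of Trdn over all mice was 3.44, below the median of every array. With all mice, none of the calcium-handling, conduction, transcription factor, energy, natriuretic peptide or ventricular genes was called for smoke at 5 days. For genotype at 5 days, 2 sarcomere genes were lower in βENaC, Myoz2 (0.50 ± 0.15, adjusted p = 0.0228) and Tcap (0.48 ± 0.15, adjusted p = 0.0386), both components of the Z-disc. Of all rows, 2.53% were called for genotype there and 0.654% were called lower in βENaC. Myh7, in the ventricular list, was 0.46 ± 0.12 lower (adjusted p = 0.0096). Myoz2 was still called lower without the 3 highest mice, and Tcap was not. Without the 2 lungs highest in skeletal muscle genes Myoz2 was again called, whereas Tcap and Myh7 were 0.38 ± 0.12 and 0.36 ± 0.08 lower, under 1.3-fold. In the natriuretic peptide list, Npr3 was lower in βENaC at 1 day (0.47 ± 0.13, adjusted p = 0.0195) and at 5 days (0.48 ± 0.11, adjusted p = 0.00215), and Corin was higher at 5 days (1.00 ± 0.30, adjusted p = 0.0254). At 1 day Npr3 was 0.59 ± 0.13 higher in smoke-exposed mice (adjusted p = 0.00179), and Myoz2 (0.41 ± 0.12, adjusted p = 0.0298) and Mb (0.58 ± 0.15, adjusted p = 0.00997) were higher in males. The shares of all rows called at 1 day were 1.08% for smoke, 1.55% for genotype and 0.845% for sex. Without the 1-day lung that was high in skeletal muscle genes, Myoz2 was 0.34 ± 0.11 higher in males, under 1.3-fold, Mb was still called (0.48 ± 0.12, adjusted p = 0.00869), and so was Ckm, the creatine kinase of muscle (0.42 ± 0.11, adjusted p = 0.00794).

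Markers of fat moved with the members, and their part in these results was not tested. All 5 white fat genes had a mean r of 0.5 or more with the members, led by Plin1, which coats fat droplets (0.67), as did 4 of 5 brown fat genes, led by Cidea (0.68) and Ucp1 (0.62). Without the 3 highest mice, 3 of 5 white fat and 2 of 5 brown fat genes reached 0.5, with Cidea at 0.56 and Ucp1 at 0.51, and the median of the brown fat list fell from 0.55 to 0.33. In the 3 mice with the highest members, the mean of the 5 brown fat genes stood 1.24, 1.47 and 1.86 above its average over all mice, at places 4, 2 and 1 of 79, and that of white fat 0.80, 1.50 and 1.04 above, at places 5, 1 and 4. At 5 days the white fat mean ran from -0.92 to 1.50 in smoke and from -0.46 to 0.71 in sham mice, and the brown fat mean from -0.67 to 1.86 and from -0.79 to 1.09. The levels of Ucp1, the heat-producing uncoupling protein of brown fat, ran from 3.29 to 9.45, and those of Adipoq, a hormone gene of fat cells, from 5.56 to 7.91. For smoke at 5 days, 1 of 5 white fat genes, Lep, was called (0.52 ± 0.15 higher, adjusted p = 0.0288), and 0 of 5 brown fat genes. The share of all rows called there was 1.16%. The median level of Lep over all mice was 3.15, below the median of every array. With the 3 highest mice left out, 0 of the 5 white fat genes were called. At 1 day, Dio2 of the brown fat list, a thyroid hormone deiodinase, was 0.54 ± 0.15 higher in smoke-exposed mice (adjusted p = 0.0159), and Cfd of the white fat list, complement factor D, was 0.56 ± 0.14 higher in males (adjusted p = 0.00601).

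Markers of other tissues were measured in the same way. All 5 erythroid genes rose with smoke at 5 days, by between 0.94 and 1.89 log2 units. Each of them was called, where 0.581% of all rows were called higher in smoke. Their mean stood 1.37, 1.26 and 0.87 above its average in the 3 mice with the highest members, at places 5, 9 and 15 of 79, and its median over all smoke-exposed mice at 5 days was 1.13. After removal of group means, which takes out that rise, their median r with the members was 0.21. Among the erythroid genes, Ahsp was higher in βENaC at 1 day (1.31 ± 0.30, adjusted p = 0.00346) and at 5 days (1.47 ± 0.22, adjusted p = 1.15e-05). Hbb-bt and Alas2 were lower in βENaC at 5 days (0.38 ± 0.12 and 0.39 ± 0.11, adjusted p = 0.0339 and 0.0148), calls that were lost without the 2 lungs highest in skeletal muscle genes. Slc4a1 was higher in males at 5 days (0.89 ± 0.20, adjusted p = 0.019). Of the 11 skeletal muscle genes, 10 had an r of 0.16 or less and Myl1 had 0.53. In the 3 mice with the highest members the skeletal mean was at 0.04, -0.03 and 0.55, places 7, 9 and 3 of 79. Smooth muscle genes had a median r of 0.21, thymus genes 0.11, mesothelial genes 0.33 and lung epithelial genes -0.04. Cnn1, the smooth muscle calponin gene, was lower in βENaC at 1 day (0.44 ± 0.08, adjusted p = 0.000372) and 5 days (0.61 ± 0.07, adjusted p = 1.28e-07). Msln, the mesothelin gene, was higher at 1 day in βENaC (0.47 ± 0.06, adjusted p = 3.91e-07) and in males (0.38 ± 0.06, adjusted p = 1.72e-05). In the 3 highest mice, the ventricular mean was 0.15, -0.09 and -0.08, and the lung epithelial mean was -0.01 in each.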

How the data were processed

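Right lung RNA of each mouse was hybridised to an Affymetrix moGene 2.1 array, all on a single plate. The deposited values are log2 intensities that the authors made by RMA, naming Affymetrix Expression Console 1.4 and Partek 6.6 in the processing notes. RMA subtracts background, quantile-normalizes arrays and summarises probes, which evens out array-wide shifts. No detection call was used here, and precision is limited by how many arrays there were. Groups came from the sample titles. Rows were named by transcript accession through a RefSeq gene table (21057 rows) or through the tables published with the study, used for names only (780 rows), and 9513 rows stayed unnamed.

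limma 3.58.1 was fitted to all 31350 rows, with exposure, genotype and sex at each duration, and with exposure by duration over all mice. Benjamini-Hochberg adjustment ran over all rows. The study fitted the same terms with the glm function of R and tested the duration term on its exposure-response genes alone, and both forms were run as alternatives. The procedure was tested on simulated data. Mice were treated as replicates, and replicate numbers did not pair mice. WT and βENaC mice were littermates, but the sample titles name no litter or exposure run. Effects of litter or run were therefore not modelled. Lists were fixed by name, and genes are named when they are members, called, extreme in a list, or among the 10 most alike, and results of some listed genes are not reported here. The members and lists were chosen with earlier results of these data known. The alternatives were other normalizations, filters, variance models, a replicate block, no fold threshold, and each mouse left out. Leaving out together the 3 highest mice, or the 2 lungs highest in skeletal muscle genes, was chosen after seeing the data.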

Additional observations from a re-analysis of the deposited data

Results flagged for a closer look

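Within each group, the highest and lowest mouse of every member was compared with its nearest neighbour by Dixon's ratio. Of 96 combinations of gene and group, 12 stood apart, where chance flags about 5% of groups, and the members are correlated, so that 1 mouse can be counted several times. The smoke-exposed WT male replicate 2 at 5 days, in a group of 4, stood apart in all 6 genes, with Myh6 at 10.42, Myl7 at 9.85, Nppa at 12.23, Tnnt2 at 10.97, Tnni3 at 9.41 and Sln at 10.08. Among smoke-exposed mice at 5 days, the WT female replicate 3 stood apart in Tnnt2 (10.90), the βENaC female replicate 5 in Nppa (12.18) and the βENaC male replicate 4 in Myh6 (9.81). The sham-exposed βENaC female replicate 3 at 5 days stood apart in Nppa (9.97). The smoke-exposed βENaC male replicate 2 at 1 day stood apart in Myh6 (8.87) and Tnni3 (7.96), in a group of otherwise close values.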

How the results depend on the processing

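No member was called for exposure or genotype at 1 day, for sex at 5 days, or for exposure by genotype or sex at either duration, under any alternative run or with any mouse left out (0 to 0 members). For exposure at 5 days, 1 member was called under every alternative but that of leaving out the 3 highest mice, where 0 were called, and 0 to 1 with single mice left out. For sex at 1 day, 1 member (Sln) was called with no fold threshold and 0 to 1 with single mice left out. For genotype at 5 days, 1 member (Sln) was called in 1 fit over all mice and 0 to 1 with single mice left out. For duration dependence, 1 member (Tnnt2) was called with array weights and with adjustment over the exposure-response rows alone, and 0 to 1 with single mice left out. Among the exposure-response rows, of which 171 of 575 were called, Tnnt2 was the only member tested. It entered them through its own smoke call at 5 days. With the replicate block, 1 member was called for exposure at 5 days and 0 in every other comparison, as without it. Replicate numbers did not pair mice: same-numbered mice of different groups had a median correlation of 0.01, and mice with different numbers 0.00. The median pairwise correlation was 0.78 without the 3 highest mice and 0.83 to 0.88 with single mice left out, and the median within-group SD was 0.41 to 0.45 with single mice left out. Coefficients near 0 changed sign without being called. For sex at 5 days, Myh6 was 0.0088 with arrays centred on their medians, 0.012 with the replicate block and 0.052 without the 3 highest mice, Nppa was 0.0089 with the replicate block and 0.067 without the 3 highest mice, and Myl7 was -0.052 with array weights. With a mouse left out, the same coefficients ran from -0.080 to 0.064 for Myh6, -0.197 to 0.088 for Nppa, -0.068 to 0.079 for Myl7 and -0.029 to 0.105 for Tnni3, and that of Myl7 for exposure at 1 day from -0.060 to 0.033, and 0.0026 without the 2 lungs highest in skeletal muscle genes. Over all rows, 192 were called for duration dependence, against 299 without the lowest 30% of rows, 447 with array weights, 407 with genotype and sex added and 112 without the 3 highest mice. Single mice left out gave 137 to 305, and those that moved this count over 1.5 times were the smoke-exposed βENaC female replicate 3 (305) and the sham-exposed WT female replicate 3 (292), both at 5 days. No fold threshold raised the calls from 339 to 2964 for exposure, 487 to 1840 for genotype and 265 to 3101 for sex at 1 day, and from 363 to 2048, 793 to 3191 and 62 to 193 at 5 days. The joint test at 1 day called 2 rows, and 0 to 8 under alternatives. Counts of called genes in the other lists kept within 1.5 times in 1288 of 1335 values other than those with no fold threshold, with 26 higher and 21 lower. The alternative of using another row of a gene could not be run, since each member had 1 row. The causes of these changes were not tested.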
